A study of Ovis aries with 32 samples.

Results

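The insulin-like growth factors (IGFs) are small peptide hormones that drive fetal growth and act on many mesenchymal cells, adipocyte precursors among them. IGF1 and IGF2 signal through the tyrosine kinase receptor IGF1R. IGF2R binds IGF2 and carries it into the cell for degradation. In tissue fluid the ligands are held by a family of secreted binding proteins (IGFBPs), which are opened by proteases, so that the amount of free ligand depends on all 3 kinds of gene. The genes described here are the 2 ligands, the 2 receptors and the binding proteins IGFBP2, IGFBP3, IGFBP4, IGFBP5, IGFBP6 and IGFBP7. They were chosen by name, with earlier results of these data known, and are 10 of the 21271 genes in the table. Together they hold 27 of its 35219 transcripts.

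The study asked how fetal growth restriction and sex alter the gene expression of preadipocytes and their response to differentiation. Preadipocytes came from the perirenal fat of near-term sheep fetuses of crossbred Columbia-Rambouillet ewes with singleton pregnancies. The control groups were male (MC) and female (FC) fetuses of ewes kept at normal ambient temperature and pair-fed to the heated ewes. The growth-restricted groups were male (MFGR) and female (FFGR) fetuses whose ewes were held in raised ambient heat during gestation, which produces placental insufficiency. Each group was sequenced as preadipocytes and, with a D added to its name (MCD, FCD, MFGRD, FFGRD), after differentiation. This gave 8 groups of 4 libraries. The protocol and length of differentiation are not given in the sources used here. The growth-restricted animals thus shared maternal heat exposure, and heat and growth restriction cannot be told apart in these groups. The libraries were bulk, so that fewer cells expressing a gene and less RNA of it per cell cannot be told apart.

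All values are the deposited normalized reads, summed over the transcripts of a gene. They are not divided by gene length, so levels are compared between libraries and not between genes. The values of a library summed to 9.52 to 21.22 M, which stands for approximately 7.81 to 21.32 M reads, and 1 read was worth 0.696 to 1.804 units. Nothing in the labels says that the libraries of a group came from separate fetuses, so p-values measure the spread between these samples, which may in part be technical. The labels describe RNA from adipose tissue, whereas the study's methods describe preadipocyte and differentiated cell pellets.

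Some libraries stood apart in a property that touches the results. The span slope of a library is the slope of its log2(value + 1) on the log10 genomic span of the tested genes, and it is high where long genes have high values. It ran from -0.284 to 0.907. In 9 libraries, 4 of preadipocytes and 5 of differentiated cells, it was 0.245 or less, and in the other 23 it was 0.505 or more. Results that rest on these 9 libraries are given with and without them. What the slope reflects was not tested.

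Of the 8 adipocyte markers, all 8 rose with differentiation. Their summed level was 87.1 to 2042.5 in preadipocytes and 414.8 to 185368.6 in differentiated cells. The preadipocyte marker DLK1 was under 10 in every library, while the other fibroblast markers were present. Of the 8 fibroblast markers 7 were tested, 1 rose and 2 fell, with summed levels of 154671.2 to 1271231.3 in preadipocytes and 84817.2 to 927471.4 in differentiated cells. Of the 5 leukocyte markers 2 were tested, 1 rose and 1 fell. Their summed levels were 88.4 to 551.6 and 114.4 to 903.6, and PTPRC and CSF1R were under 10 in each differentiated library. Of the 5 endothelial markers 1 fell of 4 tested, with summed levels of 10.1 to 92.7 and 5.8 to 286, and CDH5 was under 10 in all 32 libraries. Of the 3 mesothelial markers in the table none passed, at 2.0 to 1875.2 and 2.1 to 129.8. Of the 4 smooth muscle markers 3 fell, and their summed level went from 6202.3 to 59997.7 in preadipocytes to 600.1 to 15401.1 in differentiated cells. The part of these markers in the results that follow was not tested.

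The members lie on 8 chromosomes in Oar_rambouillet_v1.0, the assembly of the table. IGF1 spans chr3:183953845-184028211 and IGF2 chr21:51230111-51254773. The receptors span chr18:7575822-7876551 (IGF1R) and chr8:90923720-91025211 (IGF2R). IGFBP2 (chr2:233284448-233452142) and IGFBP5 (chr2:233465858-233504611) are neighbours, 13715 bases apart. IGFBP3 lies at chr4:83695257-83703580, IGFBP4 at chr11:22498094-22509690, IGFBP6 at chr3:142893586-142897244 and IGFBP7 at chr6:79594089-79674075. The span of IGFBP2 contains RPL37A, a ribosomal protein gene whose own value reached 15732.6, and IGFBP7 shares 17 bases with POLR2B. Reads of such overlaps may be split between the genes, which makes the levels of IGFBP2 and IGFBP7 less certain. The 2 unnamed genes that overlap IGF2 were listed at 0 in all libraries.

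Differentiation moved the IGF family at 3 points. IGF2 rose by 6.72 and IGFBP3 by 4.18 on the log2(value + 1) scale, as the mean of the 4 groups, and IGFBP6 fell by 4.26. The other 7 members, the ligand IGF1, both receptors and 4 binding proteins, did not pass the test. A gene was called at a Benjamini-Hochberg adjusted p-value under 0.05 and a fold change above 1.5 in one limma fit over the 32 libraries and 12737 tested genes. By this rule 27.2% of all tested genes were called, 12.4% higher and 14.8% lower, so that 3 of 10 members is close to the background share. The median log2 fold change of the 10 members was 0.11, beside 0.03 over all genes tested.

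**Figure D1:**
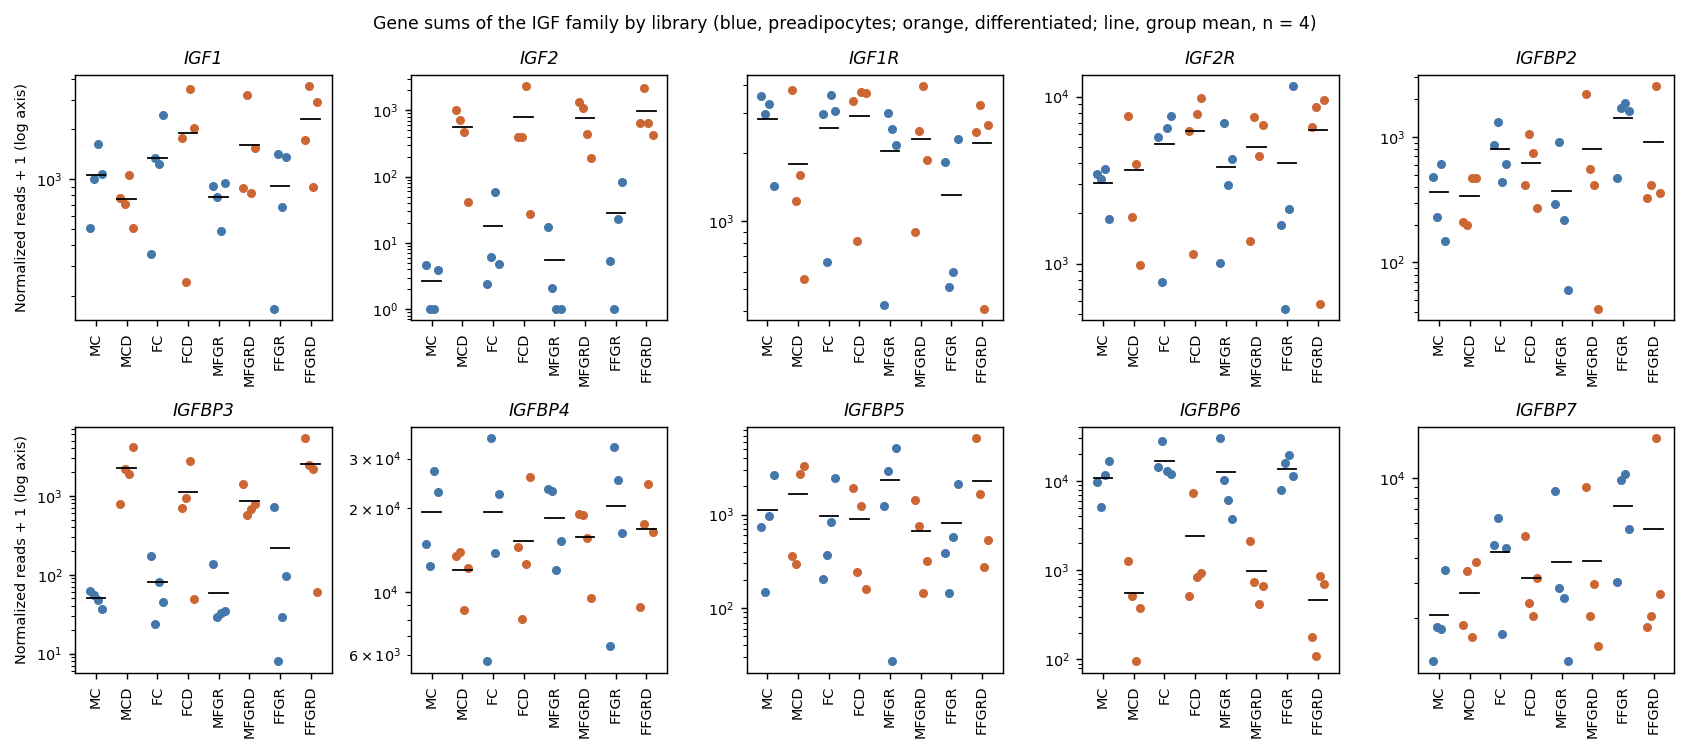
Normalized reads plus 1 (log axis) of the 10 genes in each library, with 4 libraries per group. Blue points are preadipocytes, orange points differentiated cells and black lines the group means. IGF2 and IGFBP3 lie higher and IGFBP6 lower in most differentiated libraries, while the other 7 genes overlap between the stages.

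IGF2, the fetal growth factor, was close to absent from preadipocytes. The 4 MC libraries had 3.657, 0, 0 and 2.833 normalized reads, all worth 3 reads or fewer, and the MFGR libraries had 16.63, 1.072, 0 and 0. The FC libraries had 1.366, 5.105, 58.29 and 3.866, and the FFGR libraries 4.291, 0, 21.72 and 81.81. The highest preadipocyte levels were thus in single female libraries.

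After differentiation the MCD libraries had 1019, 716.2, 466.1 and 40.47 normalized reads of IGF2, and the FCD libraries 396.7, 399.1, 2343 and 26.17. The MFGRD libraries had 1323, 1075, 434.9 and 187.7, and the FFGRD libraries 644.3, 2152, 636.8 and 424. Of the 16 differentiated libraries, 14 lay above every preadipocyte library, and MCD replicate 4 and FCD replicate 4 were the exceptions. All 16 lay above the preadipocyte mean of their own group. The stage means were 12.5 ± 23.7 and 768 ± 679 (SD, n = 16 each).

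The IGF2 difference had a standard error of 0.66, a 95% confidence interval of 5.37 to 8.07 and an adjusted p of 9.662e-09 (limma). A log2 fold change of so low a gene depends on the pseudocount. With each library taken at no less than 3 reads, the difference was 5.89, which is 59.4-fold. Taken so, the difference was 6.27 in MC, where it is a lower bound of 77.4-fold, 5.03 in FC, 6.57 in MFGR and 5.70 in FFGR. Both annotated IGF2 transcripts rose, the first, IGF2-201, with 96.88% of the gene's values, by 6.69 (adjusted p = 2.631e-08) and IGF2-202 by 3.62 (adjusted p = 1.748e-05).

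IGF1, which growth hormone induces in many tissues, was present in both stages. It ranged from 164.6 to 2432 in preadipocytes and from 240.8 to 3652 in differentiated cells, with 11 of 16 differentiated libraries above the preadipocyte mean of their group. The difference of 0.58 (95% confidence interval -0.15 to 1.3, limma adjusted p = 0.2304) did not pass the test. Without the 9 libraries of low span slope it was 1.18 and passed (adjusted p = 0.01691), as it did with libraries weighted by their fit (0.96, adjusted p = 0.01566). Of its 5 transcripts, IGF1-204, with 6.62% of the gene's values, was called at 1.51 (standard error 0.46, adjusted p = 0.01831, with 19.8% of all tested transcripts called). Its mean was 45.3 ± 35.8 in preadipocytes and 131 ± 99.5 in differentiated cells (SD, n = 16 each). The main transcript, IGF1-201 with 80.09% of the values, changed by 0.66 (adjusted p = 0.2349). The difference between these transcripts was not tested.

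The receptors did not pass the test. IGF1R differed by 0.07 (95% confidence interval -0.69 to 0.84, limma adjusted p = 0.9104). In this fit of all 32 libraries, that interval lies within a 2-fold change in either direction. The fit includes the 9 libraries of low span slope, and an interval without them is not given here. IGF2R differed by 0.40 (-0.57 to 1.38, adjusted p = 0.5719). Without the 9 libraries of low span slope neither receptor gene was called. The transcripts IGF2R-203 (0.89, limma adjusted p = 0.04707) and IGF2R-206 (0.96, adjusted p = 0.03452) then passed, with 8.1% and 5.4% of the gene's values. Both receptors varied between libraries of one group. IGF1R lay between 408.2 and 3968 over the 32 libraries and IGF2R between 532.2 and 11632.

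The receptor levels moved with the span slope. The 9 libraries of low span slope held the 9 lowest IGF1R values, 408.2 to 1223, and the other 23 libraries held 1430 to 3968, with no overlap. IGF2R lay at 532.2 to 2114 in the 9 and at 1691 to 11632 in the others. IGFBP7 went the other way, with 2387 to 15854 in the 9 libraries and 1214 to 5557 in the others. IGF1R has the longest span of the members, 300730 bases. The order of the spans was not that of the shifts. IGFBP2 spans 167695 bases, more than the 101492 of IGF2R, and lay at 197.3 to 2567 in the 9 libraries and at 41.42 to 1623 in the others. The part of the slope in the receptor levels was not tested.

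**Figure D2:**
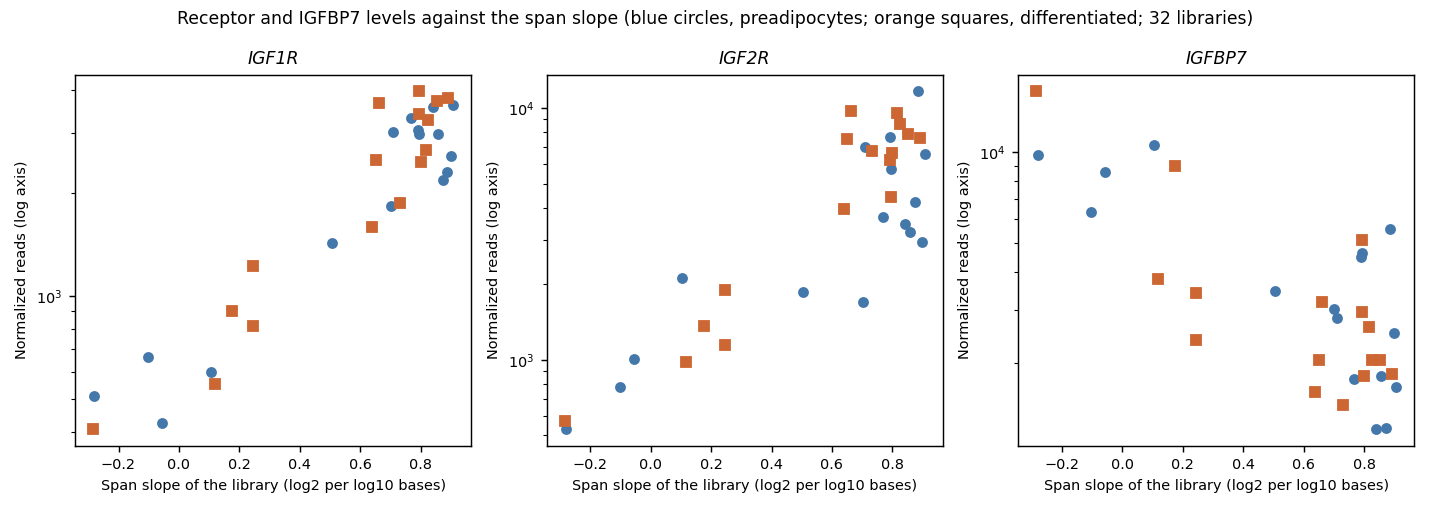
Normalized reads (log axis) of IGF1R, IGF2R and IGFBP7 in the 32 libraries against the span slope of the library (log2 units per log10 bases). Blue circles are preadipocytes and orange squares differentiated cells. The 9 libraries at slopes of 0.245 or less hold the 9 lowest IGF1R values, and most of the highest IGFBP7 values.

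IGFBP3, the main carrier of IGFs in serum, rose with differentiation. The MC libraries had 61.21, 54.81, 47 and 35.88 normalized reads and the MCD libraries 791, 2197, 1871 and 4131, with no overlap. The MFGR libraries had 135.2, 28.23, 32.19 and 33.85 and the MFGRD libraries 1431, 563.5, 677.2 and 782.6, again with no overlap. In both male groups every differentiated library therefore exceeded every preadipocyte library.

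In females single libraries overlapped. The FC libraries had 172, 22.93, 79.56 and 44.78 and the FCD libraries 690, 946.3, 2801 and 48.61, where the last value, FCD replicate 4, lay within the preadipocyte range. The FFGR libraries had 728.2, 6.964, 28.24 and 94.72 and the FFGRD libraries 5402, 2431, 2189 and 59.03. Here FFGR replicate 1 was high for a preadipocyte library, and FFGRD replicate 4 was low. The mean difference of the 4 groups was 4.18 (standard error 0.60, 95% confidence interval 2.94 to 5.41, limma adjusted p = 4.367e-06). It was 3.30 without the 9 libraries of low span slope (adjusted p = 0.001118), which is a fold change over 1.5 times smaller.

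IGFBP6, a binding protein with a strong preference for IGF2, fell with differentiation, in the opposite direction to its ligand. The MC libraries had 9846, 5143, 11520 and 16617 normalized reads and the MCD libraries 1253, 509.6, 94.01 and 379.1. The FC libraries had 14164, 28351, 12938 and 11932 and the FCD libraries 512, 7305, 836.4 and 935.7. Only FCD replicate 2 stayed within the range of the 16 preadipocyte libraries.

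In growth-restricted animals the MFGR libraries had 30253, 10369, 6048 and 3717 normalized reads of IGFBP6 and the MFGRD libraries 2121, 739.9, 412.5 and 672.7. The FFGR libraries had 7915, 15991, 19424 and 11222 and the FFGRD libraries 175.6, 107, 862.8 and 704.4. The groups did not overlap within any of the 4 comparisons, and 15 of 16 differentiated libraries lay below every preadipocyte library. The mean fell by 4.26 (standard error 0.40, 95% confidence interval -5.08 to -3.44, limma adjusted p = 4.815e-09). Leaving out FCD replicate 2 gave -4.47.

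The remaining binding proteins did not pass the test. IGFBP4, which mostly inhibits IGF action, differed by -0.29 (95% confidence interval -0.80 to 0.22) and was the steadiest member, with a within-group SD of 0.71 on the log2 scale and a range of 5671 to 35540. IGFBP2, a binding protein of fetal serum, differed by -0.23 (-1.13 to 0.67) and ranged from 41.42 to 2567. IGFBP5, a matrix-bound member, differed by 0.14 (-1.23 to 1.51) and was the least steady, with a within-group SD of 2.01. Within the MFGR group alone it ran from 25.88 to 5091, which is 196.7-fold. IGFBP7, which binds IGFs weakly, differed by -0.21 (-0.87 to 0.46).

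**Figure D3:**
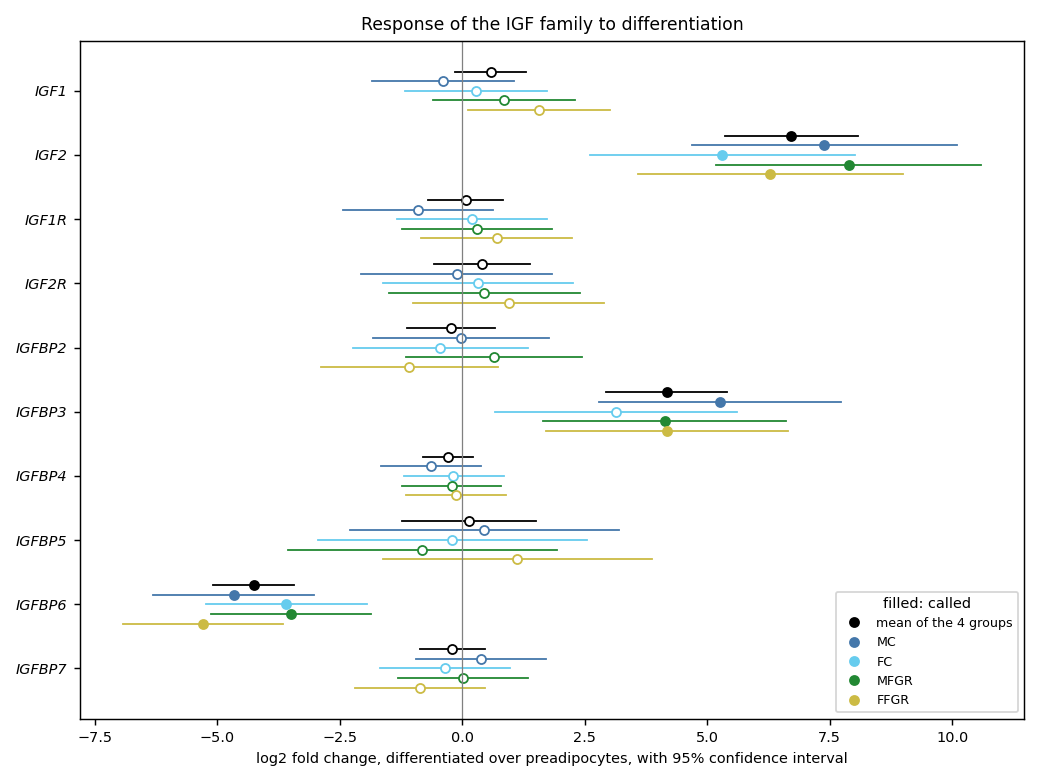
The log2 fold change of differentiated cells over preadipocytes for the 10 genes, with 95% confidence intervals, as the mean of the 4 groups (black) and in each group (colours). Filled points passed the test, which holds for IGF2 and IGFBP6 in all groups and for IGFBP3 in all groups but FC.

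Taken by group, 3 members were called in MC, 2 in FC, 3 in MFGR and 3 in FFGR, where 8.35%, 2.52%, 5.13% and 10.3% of all tested genes were called. These 4 background counts of 1063, 321, 654 and 1315 genes became 1824, 712, 1147 and 2185 with the replicate number as a block, and the member counts did not move. IGF2 rose by 7.39 in MC, 5.30 in FC, 7.89 in MFGR and 6.29 in FFGR, with limma adjusted p-values of 0.0006213, 0.02579, 0.0005254 and 0.002501. IGFBP6 changed by -4.67, -3.59, -3.49 and -5.29 in the same order, with adjusted p-values of 0.0004067, 0.01335, 0.008458 and 0.0001098. IGFBP3 changed by 5.27 in MC (adjusted p = 0.005512), 3.14 in FC (0.1781, which did not pass), 4.13 in MFGR (0.04163) and 4.17 in FFGR (0.02508). These differences in test result between groups are not differences between the groups themselves. The levels of the preadipocytes and differentiated cells did not overlap for IGF2, IGFBP3 and IGFBP6 in MC and MFGR, for IGF2 and IGFBP6 in FFGR and for IGFBP6 in FC, where 16.3% (MC), 11.6% (MFGR), 11.7% (FFGR) and 10% (FC) of all tested genes did not overlap.

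Some calls within a group were lost when 1 library was left out. IGFBP3 in MFGR, at 4.13 with a limma adjusted p of 0.04163, was close to the threshold. It lost its call without any of MFGR replicates 2, 3 and 4 or MFGRD replicates 1 to 4, while its value stayed at 3.85 to 4.30. In FFGR it lost its call without FFGR replicate 2 or 3 or FFGRD replicate 1, 2 or 3, at 3.18 to 3.86. It was 5.35 without FFGR replicate 1 and 5.59 without FFGRD replicate 4 (adjusted p = 0.00184). Without the libraries of low span slope it was 1.81 in FFGR (adjusted p = 0.4887) and 4.61 in MC (adjusted p = 0.05284). In FC, IGF2 lost its call without FC replicate 1, 2 or 4 or FCD replicate 1 or 3, at 4.34 to 5.19, and IGFBP6 without FCD replicate 1 (-3.14) or 3 (-3.38). Without FCD replicate 4, IGFBP3 passed in FC at 4.29 (adjusted p = 0.04975), and without FCD replicate 3 it was 2.35.

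The size of the IGF2 rise also depended on single libraries, though its call held in these cases. It was 6.49 in FC without FCD replicate 4 and 6.26 without FC replicate 3. It was 8.41 in MC without MCD replicate 4 and 8.84 in MFGR without MFGR replicate 1. In FFGR it was 5.19 without FFGR replicate 2 and 7.31 without FFGR replicate 4. Without the 9 libraries of low span slope it was 8.39 in MC and 5.32 in FFGR. IGFBP6 was -3.99 in MC without MCD replicate 3 and -4.42 in FC without FCD replicate 2.

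FCD replicate 4 had the lowest ADIPOQ of the 16 differentiated libraries, 8.585 normalized reads where the others had 146.1 to 13420. ADIPOQ encodes adiponectin, a product of mature fat cells. The library was also lowest of the 16 in IGF2 and in IGFBP3, but with 935.7 only 13th from the lowest in IGFBP6, which was low in it as in the other differentiated libraries. FFGRD replicate 4 had the 3rd lowest ADIPOQ, 174.7, and the 2nd lowest IGFBP3, with 424 for IGF2. MCD replicate 4 held much ADIPOQ, 8436, and the 2nd highest IGFBP3, but the 2nd lowest IGF2. The order of IGF2 among these libraries was thus not that of ADIPOQ.

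Of 45 other listed genes of the IGF pathway 39 were tested, and 21 of these were called, 13 higher and 8 lower, beside 27.2% of all genes. The counts by role that follow stand beside 12.4% of all tested genes called higher and 14.8% called lower. The list was chosen with earlier results of these data known, and whether its share differs from that of the family or of all genes was not tested. Without the 9 libraries of low span slope 22 were called, 11 in each direction. ADAM28 was not matched in the table. IGFBP1, IGFBPL1, IGF2BP1, INSRR and IRS4 were below the filter. IGFBP1, which lies 6648 bases from IGFBP3, was listed at 0 in all 16 preadipocyte libraries and reached 2.88 in differentiated cells.

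Among the proteases of the binding proteins and their inhibitors, 4 of 11 tested rose and 3 fell. PAPPA2, a metalloprotease that cleaves IGFBP3 and IGFBP5, ran from 0 to 29.83 in preadipocytes and from 24.29 to 11251 in differentiated cells. It lay above every preadipocyte library in 15 of 16 differentiated libraries, and FCD replicate 2 was the exception. The log2 fold change was 7.94 (standard error 0.74, limma adjusted p = 4.383e-09) and 8.38 without FCD replicate 2. Its relative PAPPA, which cleaves IGFBP4, rose by 2.58 (adjusted p = 0.000734), from 2.81 to 196 in preadipocytes to 40.82 to 920 in differentiated cells. STC1, a secreted glycoprotein that inhibits PAPPA, rose by 2.73 (adjusted p = 0.006731), but by 1.68 without the libraries of low span slope, where it did not pass (adjusted p = 0.1118). TIMP1, a metalloprotease inhibitor, changed by -2.01 and the complement protease C1S by -1.95. TIMP1 lies within SYN1 and may share its reads, but SYN1 reached only 102.7 normalized reads, where TIMP1 ran from 580.2 to 27697.

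Of the relatives of the binding proteins and the ternary complex, 3 of 4 tested fell and none rose. ESM1, a secreted proteoglycan with an IGFBP domain, had 11.75 to 263.1 normalized reads in preadipocytes and 0 to 389.6 in differentiated cells, of which 5 libraries were at 0. Its highest value was in FCD replicate 2, and the change was -4.49 (limma adjusted p = 4.795e-06), or -4.95 without that library. IGFALS, which joins IGFBP3 and a ligand in the ternary complex of serum, changed by -2.79 (adjusted p = 7.611e-07), from 1.224 to 263.9 in preadipocytes to 0 to 23.14. KAZALD1 changed by -2.46 (adjusted p = 1.224e-07). IGFBP3 and IGFALS thus changed in opposite directions as the mean of the 4 groups. In MC, however, IGFALS was low in both stages, at 1.224 to 16.19 before and 1.119 to 5.816 after differentiation. Only 2 of 16 differentiated libraries lay below every preadipocyte library in IGFALS.

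FCD replicate 2 therefore stood apart in several of these genes. It had the highest IGFBP6, ESM1, IGFALS and STC1 and the lowest PAPPA2, GHR and PIK3R1 of the differentiated libraries. Its ADIPOQ, 496.7, was 4th from the lowest, and it was one of the 9 libraries of low span slope.

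In the growth hormone arm 4 of 5 genes rose and none fell. GHR, the growth hormone receptor, ran from 71.15 to 336.3 in preadipocytes and from 363 to 2608 in differentiated cells, with no overlap. The share of all tested genes that separate the 2 stages in this way is not given here. The GHR change of 2.36 (standard error 0.24, limma adjusted p = 2.315e-08) became 5.12 when the transcript with the highest mean stood for the gene. SOCS2, a feedback inhibitor induced by growth hormone, rose by 1.53 (adjusted p = 0.0009428). STAT5A rose by 1.3 and STAT5B, which like it carries the growth hormone signal, by 0.60. JAK2 differed by -0.31 (adjusted p = 0.6582).

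Among the receptors and adaptors, 3 of 8 tested rose and 2 fell. The insulin receptor INSR rose by 1.36 (limma adjusted p = 0.02507), and the docking proteins IRS2 and GAB1 by 1.42 and 1.25. GRB14, an adaptor that inhibits the insulin receptor, changed by -2.22 (adjusted p = 0.00913), from 0 to 136.8 in preadipocytes to 0 to 20.5. SHC1 changed by -0.81. In the kinase arm 2 of 9 rose, PIK3R1 by 1.92 and PIK3R3 by 1.49, both regulatory subunits of phosphoinositide 3-kinase. PIK3CA and the 3 AKT genes did not pass. IGF2BP2 and IGF2BP3, the 2 tested of 3 genes for proteins that bind the IGF2 messenger RNA, differed by 0.12 and 0.15 and did not pass.

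**Figure D4:**
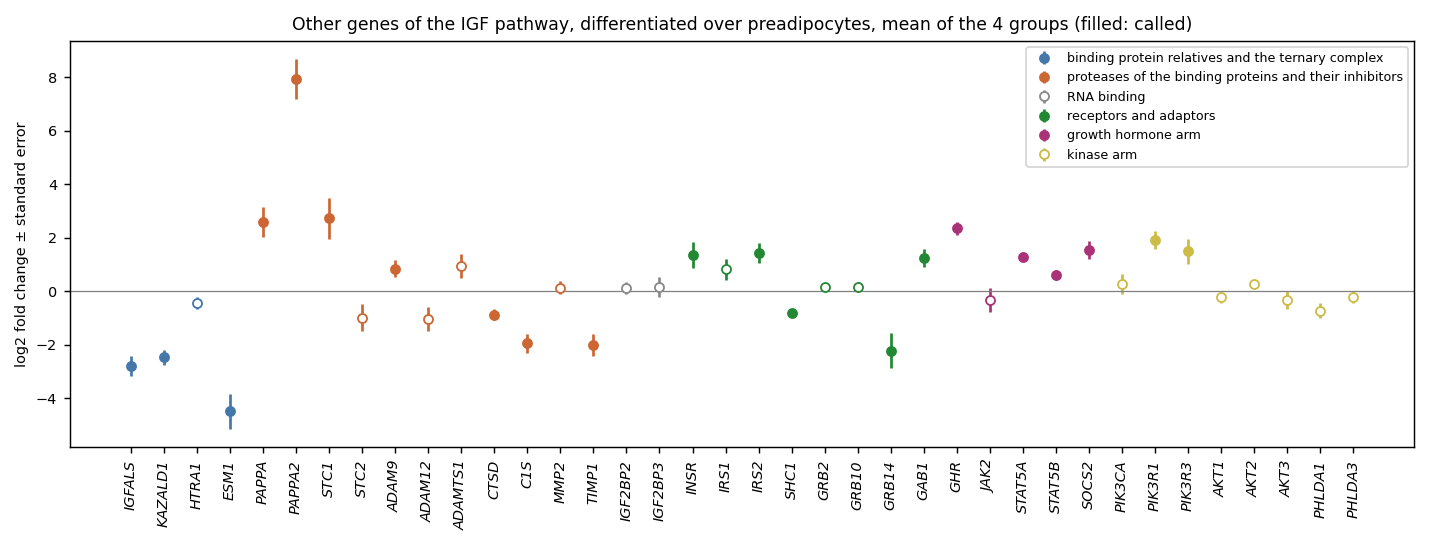
The log2 fold change, with standard errors, of the other IGF pathway genes reported between differentiated cells and preadipocytes as the mean of the 4 groups, coloured by role. Filled points passed the test (13 higher, 8 lower). PAPPA2 at 7.94 is the highest and ESM1 at -4.49 the lowest.

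The genes whose log2 levels were most like those of the 3 called members over the 32 libraries were ranked by Pearson's r, as a description. They share the libraries and the stage difference. For IGF2 these were ECE1 (0.91), SLC3A1 (0.89) and PTX3 (0.89). For IGFBP6 they were TCN2 (0.95), DDAH2 (0.95) and DEF6 (0.94), and for IGFBP3 HIF3A (0.92), SMPD3 (0.92) and KLB (0.90). Within a stage the values were lower for most. For IGF2 they were 0.69, 0.62 and 0.34 within the 16 differentiated libraries and 0.51, 0.38 and 0.41 within the 16 preadipocyte libraries, in the order given. For IGFBP6 they were 0.85, 0.78 and 0.72, and 0.54, 0.72 and 0.79. For IGFBP3 they were 0.88, 0.94 and 0.87, and 0.68, 0.38 and 0.23.

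No member of the family passed the test for growth restriction in either stage. In preadipocytes and in differentiated cells, with 8 growth-restricted and 8 control libraries each, limma called 0 of 10 members and 0 of 12737 genes (0%). At an unadjusted p under 0.05 there was no member in either comparison, with 2.7% and 1.07% of all genes below it. With library weights 2 genes were called in each stage, none of them a member. The same was found in each sex taken alone, with 0 members and 0 genes called (0%) and 1 member at an unadjusted p under 0.05, IGFBP6 in female differentiated cells. The background shares below an unadjusted 0.05 were 1.37% in male and 1.33% in female preadipocytes, and 2.69% and 1.51% in male and female differentiated cells.

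In preadipocytes IGF1 had a mean of 1196 ± 653 in controls and 844 ± 419 in growth restriction (SD, n = 8 each), and in differentiated cells 1326 ± 1072 and 1953 ± 1139. Growth-restricted cells were therefore lower before and higher after differentiation on average, but the ranges overlapped. The difference in the response to differentiation, growth-restricted minus control, was 1.27 (95% confidence interval -0.18 to 2.72, unadjusted p = 0.08383, limma adjusted p = 0.9883) and did not pass. It was the widest of the 10 members, of which none had an unadjusted p under 0.05, beside 1.04% of all genes and 0 called (0%). By group, IGF1 changed by -0.40 in MC, 0.28 in FC, 0.86 in MFGR and 1.56 in FFGR with differentiation, of which none passed (adjusted p of 0.175 in FFGR). Without the 9 libraries of low span slope it changed by 1.19 in FC and 2.48 in FFGR (adjusted p = 0.06145), without FCD replicate 2 by 1.1 in FC, and without FFGR replicate 1 by 0.88 in FFGR.

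IGF2 in differentiated cells was 676 ± 749 in controls and 860 ± 638 in growth restriction (SD, n = 8 each), with a difference of 1.03 (95% confidence interval -0.88 to 2.95). It was 0.44 without FCD replicate 4, the library with the lowest ADIPOQ, and also 0.44 without the 9 libraries of low span slope. In preadipocytes it differed by 0.29 (-1.63 to 2.20). Changes of up to several-fold in IGF2 were not detectable at this spread between libraries.

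IGF1R had the widest difference in preadipocytes, -0.86 (95% confidence interval -1.94 to 0.22, limma adjusted p = 0.8398), and IGFBP7 was higher by 0.68 (-0.26 to 1.62). These preadipocytes held 3 growth-restricted and 1 control library of low span slope. Without the libraries of low slope the difference was -0.35 for IGF1R and 0.21 for IGFBP7. In differentiated cells, with 2 such libraries in growth restriction and 3 in controls, IGF1R differed by -0.01 (-1.09 to 1.07).

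IGFBP4 gave the narrowest bounds, 0.03 (95% confidence interval -0.69 to 0.76) in preadipocytes and 0.27 (-0.46 to 0.99) in differentiated cells. IGFBP3 differed by -0.04 (-1.79 to 1.71) and by -0.09 (-1.84 to 1.66). The intervals of IGFBP5 ran from -1.99 to 1.90 in preadipocytes and from -1.95 to 1.93 in differentiated cells. For the binding proteins other than IGFBP4, a change of 2-fold is within these intervals.

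IGFBP6 was the only member with an unadjusted p under 0.05 in a comparison of the effect between the sexes. In female differentiated cells it was lower in growth restriction, with a log2 difference of -2.0 (95% confidence interval -3.63 to -0.36, unadjusted p = 0.01881, limma adjusted p = 0.9999). In male differentiated cells it was higher by 1.06 (-0.58 to 2.70). The effect in males minus that in females was 3.06 (0.74 to 5.37, unadjusted p = 0.01162, adjusted p = 0.9977), which did not pass over all genes, where 3.38% were below an unadjusted 0.05. Without FCD replicate 2, the library with 7305 normalized reads, the female difference was -1.17 and the male minus female difference 2.23. Without MCD replicate 3 the latter was 2.38 and the male difference 0.38, and without the 9 libraries of low span slope the latter was 2.41.

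The adipocyte markers had differences of the opposite sign to IGFBP6 in the same contrast, of which limma called 0 of 8. Of the 8 markers 7 had an unadjusted p under 0.05, beside the 3.38% of all genes, and their median log2 difference, male minus female, was -3.83. The median effect of growth restriction was -1.79 in males and 1.96 in females. The summed level of the markers was 10870.2 to 185368.6 in MCD, 4933.5 to 121104.8 in MFGRD, 414.8 to 20219.7 in FCD and 5452 to 175262.1 in FFGRD. The part of adipocyte content in the IGFBP6 difference was not tested. In preadipocytes the IGFBP6 difference between males and females was 0.18 (-2.14 to 2.49), and no member was below an unadjusted 0.05, beside 0.542% of all genes.

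**Figure D5:**
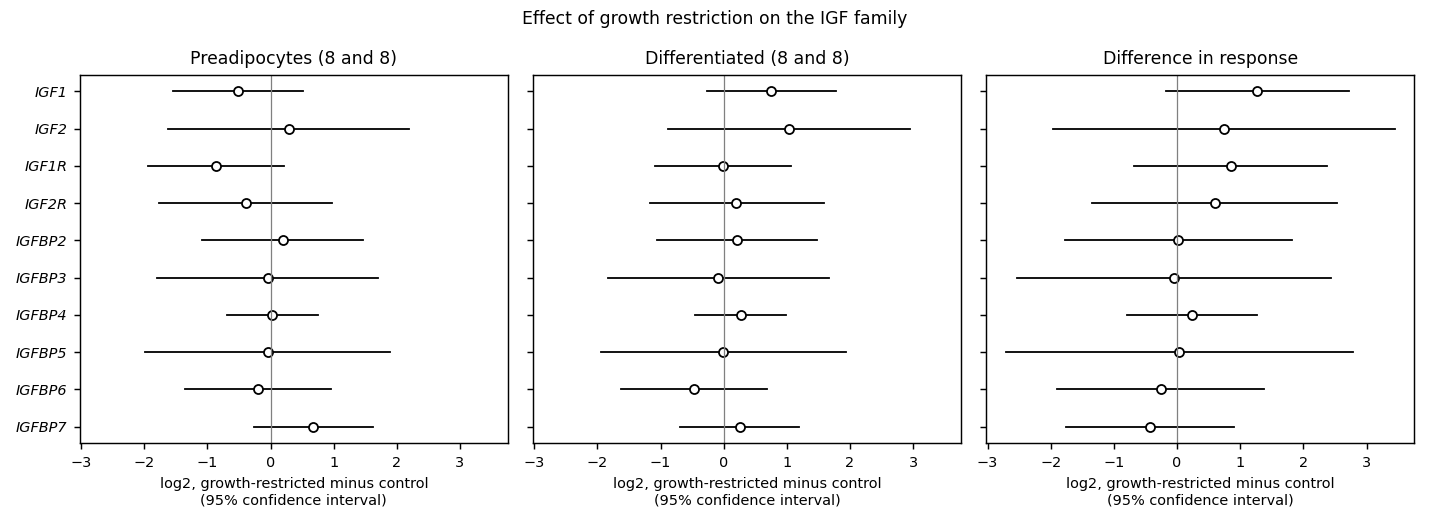
The difference between growth-restricted and control libraries for the 10 genes in preadipocytes, in differentiated cells and in the response to differentiation (log2 units, with 95% confidence intervals, 8 against 8 libraries in each stage). Every interval includes 0, and no difference passed the test.

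Of the other IGF pathway genes 0 of 39 were called in any growth restriction comparison by limma. At an unadjusted p under 0.05 there were 2 of 39 in preadipocytes and 0 in differentiated cells as the mean of the sexes, beside 2.7% and 1.07% of all tested genes.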

How the data were processed

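RNA of 32 libraries was made with a Swift RNA kit and sequenced. Per the study's methods, reads averaging under 34 in Phred score were dropped by the authors. Salmon then quantified transcripts against an Ensembl index of Oar_rambouillet_v1.0, and the authors normalized the values with DESeq2. The submitters' processing notes also name FastQC 0.11.9. The deposited signal of each transcript is in normalized reads. It also carries a factor specific to the transcript, so that whole reads could not be recovered and no count test was run. The test intended for counts was replaced by limma. The 8 columns of group means and 21 columns of the authors' fold changes, p-values and adjusted p-values were not used.

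Libraries were grouped by the labels. Transcripts were summed per gene, and genes with at least 10 in at least 4 libraries were kept, where 10 stands for 5.5 to 14.4 reads. Limma 3.58.1 (R 4.3.3, empirical Bayes with trend) was fitted to log2(value + 1) with 8 group means, tested on simulated data first, and gave 14 comparisons with Benjamini-Hochberg adjusted p-values over all 12737 genes. Transcripts were tested in the same way. The members, the pathway list and the marker lists were chosen with earlier results of these data known. All 10 members were named, and of the called pathway genes the 12 with the largest change. The other 9 called genes are described by role and were partly named after their values were seen. Approximate reads came from the smallest step between values of each library.

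No libraries were identical, and Pearson's r of log2 values between libraries was 0.677 to 0.972. Samples with the same replicate number deviated together between the stages in MC (r of 0.162 to 0.615), FC (0.303 to 0.508) and MFGR (0.393 to 0.671). In FFGR the r of 1 pair was -0.398. Equal numbers in groups of different animals at one stage gave r of -0.583 to 0.763. Among these, FC and FFGR gave 0.713, 0.763, -0.284 and 0.461. Equal numbers thus also went together between some different animals, and what the number marks was not tested. The main fit did not use the replicate number and so ignored any pairing. Only the replicate block setting used it, and for the stages it paired all groups, FFGR included. For growth restriction that setting entered the number as a factor shared by all groups. Alternatives changed the pseudocount, scaling, filter, libraries, covariates, weights and gene value. Sequences were not used here, and 1 gene of the pathway list is counted but not reported here.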

Additional observations from a re-analysis of the deposited data

Results flagged for a closer look

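There were 80 groups of 4 values, 10 members by 8 groups. In these, 9 values lay further from the others of their group than Dixon's 95% critical value allows, where chance gives about 4. Of these, 6 were low receptor values. IGF1R had 660 normalized reads in FC replicate 2, 423.7 in MFGR replicate 1, 817.9 in FCD replicate 2 and 408.2 in FFGRD replicate 3. IGF2R had 778.9 in FC replicate 2 and 572.4 in FFGRD replicate 3. These 4 libraries were among the 9 of low span slope.

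The remaining 3 were binding proteins. IGFBP2 was low in FFGR replicate 1 at 472 and high in FFGRD replicate 3 at 2567, the library with the lowest IGF1R. IGFBP3 was high in MFGR replicate 1 at 135.2, which was still below every MFGRD library.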

How the results depend on the processing

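The rise of IGF2 and IGFBP3 and the fall of IGFBP6, as the mean of the 4 groups, passed under all 10 other settings and with each of the 32 libraries left out. IGF2 ran from 4.71 (values scaled to the library total) to 7.95 (pseudocount 0.1), IGFBP3 from 3.30 to 4.21 and IGFBP6 from -4.62 to -4.09. In FC the 2 called members became 1 with a pseudocount of 0.1 and 0 with only the libraries compared in the fit, and 0 to 3 when 1 library was left out. The 5 called transcripts became 9 without the 9 libraries of low span slope, a setting chosen after seeing the data, which adds IGF1-201 (1.21), IGF1-202 (2.06), IGF2R-203 (0.89) and IGF2R-206 (0.96). The cause was not tested. The replicate block changed no member call.

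Of 335 alternatives of called member values, 308 kept call and direction and none reversed. Of 3103 alternatives of uncalled values 4 became called, those of IGF1 and of IGFBP3 in FC given above and IGFBP3 in FC with library weights (3.83), and 343 changed sign without a call. Further settings that ended a call were IGFBP3 in MFGR with no filter (adjusted p = 0.05942) and in FFGR with only its own libraries (0.2746) or library weights (0.1377), all by limma. For the 21 called pathway genes the other settings, also chosen after seeing the data, gave 16 to 24 calls.

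All genes called were 3466 as the mean of the 4 groups and 1721 to 4198 under other settings. By group 1063 became 576 to 2418 in MC, 321 became 50 to 1999 in FC, 654 became 375 to 2075 in MFGR and 1315 became 310 to 2618 in FFGR. In growth restriction comparisons 0 became at most 6. Scaling to the library total moved the median of all genes in the differentiation comparisons from 0.03 to 0.13 as the mean of the groups and from 0.02 to 0.26 in FC. Few reads limit IGF2 in preadipocytes, where 9 of 16 libraries held 3 reads or fewer.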
